A study of Mus musculus with 8 samples.

Results

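The 8 hippocampal field marker genes, out of 18939 genes with a count, were 4 markers of the CA1 field (Spink8, Fibcd1, Wfs1 and Mpped1) and 4 markers of the dentate gyrus (C1ql2, Prox1, Calb1 and Smoc2). They were chosen by name, as genes by which RNA of the hippocampus lying above the dissected thalamus could be seen, and with results of the morphine and control libraries already known. Their difference between morphine and control was therefore among the values that chose them, and it is given here as a description. RNA came from mice on a C57Bl/6J background that carried OPRM1cre, in which Cre is made from the mu-opioid receptor (MOR) gene Oprm1, together with the EGFP-L10a allele, a tagged ribosomal protein that Cre switches on. Translating ribosome affinity purification (TRAP) pulled the tagged ribosomes and the RNA on them from a gross dissection aimed at the paraventricular nucleus of the thalamus (PVT). The morphine mice drank morphine in 0.2% saccharin for 11 days, starting at 0.3 mg/ml and ending at 0.5 mg/ml, and the control mice drank saccharin alone. Mice were 8 to 12 weeks old when experiments began, and control and morphine mice carried the same alleles. Each group had 4 libraries, 2 labelled male and 2 labelled female, and tissue from 2 mice of 1 sex went into each.

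The hippocampus is built of fields that differ in the genes they use. Pyramidal neurons of CA1 send the output of the hippocampus onward, and granule cells of the dentate gyrus pass input from the entorhinal cortex to CA3 through their mossy fibres. Most of the 8 genes are known from other cells and brain regions as well: Prox1 and Calb1 are also used by thalamic and interneuron populations, and Wfs1 and Mpped1 by neurons of the cortex and amygdala. These genes therefore do not mark a hippocampal field alone. In bulk libraries such as these, more cells of a type and more RNA per cell cannot be told apart.

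Counts, with 1 transcript kept per gene, summed to 37081348 to 43311793 in the control and 31151103 to 47582947 in the morphine libraries, and 16920 to 17441 genes were detected per library. Control replicate 5, labelled female, held 2072 counts over 4 Y-linked genes, where the other 3 female libraries held 1 to 2 and the 4 male libraries 4240 to 6145, so its label as a pool of female mice is uncertain. Oprm1, whose locus drives the Cre, was at 25.3 ± 6.92 CPM (CPM, a gene's reads scaled to a common library size; SD, n = 4) in control and 16.5 ± 1.95 CPM in morphine libraries, with overlapping ranges (edgeR log2 fold change -0.62, SE 0.19, adjusted p = 0.207). The 7 thalamic genes (such as Tcf7l2 and Gbx2) summed to 2169 to 2728 CPM in control and 1599 to 2876 CPM in morphine libraries.

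All 8 genes had a count above 0 in every library, and each had a single transcript row in the counts. Spink8 lay on mouse chromosome 9 (109812203 to 109826628, plus strand), Fibcd1 on chromosome 2 (31813290 to 31846964, minus), Wfs1 on chromosome 5 (36966104 to 36988982, minus) and Mpped1 on chromosome 15 (83779472 to 83858487, plus). C1ql2 lay on chromosome 1 (120340582 to 120343174, plus), Prox1 on chromosome 1 (190118035 to 190170827, minus), Calb1 on chromosome 4 (15881264 to 15906709, plus) and Smoc2 on chromosome 17 (14279490 to 14404790, plus), all in RefSeq coordinates of GRCm38.p6. Exons of Prox1 overlap the antisense gene Prox1os. The counting was not stated to use strand, so reads of Prox1 and Prox1os cannot be told apart.

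RefSeq promoters (GRCm38.p6, from 250 bases before to 50 bases after the start) were at hand for 5 of the 8 genes, and 3 of them are shown. C1ql2 (chr1:120340332-120340631, plus strand) and Fibcd1 (chr2:31845956-31846255, minus strand) are shown because the dentate and the CA1 gene were both highest in the same library, and Prox1 (chr1:190170778-190171077, minus strand, the promoter at the upstream start) because it was lowest there. The Fibcd1 window belongs to the start at 31846005, which lies inside the span of the gene given above, since that span reaches to the outermost start of any of its transcripts. Capitals mark matches to GGGCGG (a GC box), CAGATG (an E-box) or TATAAA on either strand.
C1ql2: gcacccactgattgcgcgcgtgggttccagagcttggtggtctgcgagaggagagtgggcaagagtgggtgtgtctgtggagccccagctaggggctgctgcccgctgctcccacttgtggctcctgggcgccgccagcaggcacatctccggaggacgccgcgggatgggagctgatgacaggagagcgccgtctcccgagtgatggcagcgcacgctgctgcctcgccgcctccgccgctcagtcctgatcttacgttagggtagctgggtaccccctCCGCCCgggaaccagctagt
Fibcd1: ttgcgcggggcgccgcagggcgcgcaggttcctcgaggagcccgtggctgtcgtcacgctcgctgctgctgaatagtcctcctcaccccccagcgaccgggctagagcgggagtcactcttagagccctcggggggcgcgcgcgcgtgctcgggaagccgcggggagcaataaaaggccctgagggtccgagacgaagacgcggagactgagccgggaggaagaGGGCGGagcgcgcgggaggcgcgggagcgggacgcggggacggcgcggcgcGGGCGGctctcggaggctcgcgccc
Prox1: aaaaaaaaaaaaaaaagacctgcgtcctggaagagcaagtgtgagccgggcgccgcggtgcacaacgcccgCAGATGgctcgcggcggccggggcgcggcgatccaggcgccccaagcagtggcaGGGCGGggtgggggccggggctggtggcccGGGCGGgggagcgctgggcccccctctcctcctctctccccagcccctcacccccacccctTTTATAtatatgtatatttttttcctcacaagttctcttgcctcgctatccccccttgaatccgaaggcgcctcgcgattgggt
The bases G and C made up 67.3% of the C1ql2 window, 74.3% of the Fibcd1 window and 64.3% of the Prox1 window, against a median of 52.7% over 32851 promoters. The C1ql2 window held 1 GGGCGG match, the Fibcd1 window 2 and the Prox1 window 2, and 35.7% of all promoters held at least 1. Only the Prox1 window of the 3 held CAGATG (17.2% of all promoters) and TATAAA (13.6%). The motifs were chosen after the data were seen, and a match is a description of letters in this window.

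Levels compared per kilobase of transcript spread over a wide range. Calb1 was at 67.6 CPM per kb (mean of 8 libraries), above 94.4% of the 18497 genes with a known transcript length, followed by Mpped1 at 26.9, Prox1 at 16.9, Wfs1 at 11.6, C1ql2 at 8.26, Fibcd1 at 4.40, Smoc2 at 1.04 and Spink8 at 0.651 CPM per kb. Calb1 was above Mpped1 in 8 of 8 libraries, C1ql2 above Fibcd1 in 8 and Fibcd1 above Smoc2 in 8. Smoc2 was above Spink8 in 7 of 8, and the pairs Mpped1 and Prox1, Prox1 and Wfs1, and Wfs1 and C1ql2 kept their order in 6 of 8 each, so these neighbours overlapped. Wfs1 was above C1ql2 in 4 of 4 control libraries and in 2 of 4 morphine libraries. Over all 8 libraries the CA1 markers ran from above 33.7% of genes (Spink8) to above 84.1% (Mpped1), and the dentate markers from above 37.2% (Smoc2) to above 94.4% (Calb1). Spink8 was above 21.6% of genes in control and above 38.1% in morphine libraries. Libraries differed least for Prox1, whose highest library was 1.45 times its lowest, and most for Spink8, with a ratio of 69.7.

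**Figure D1:**
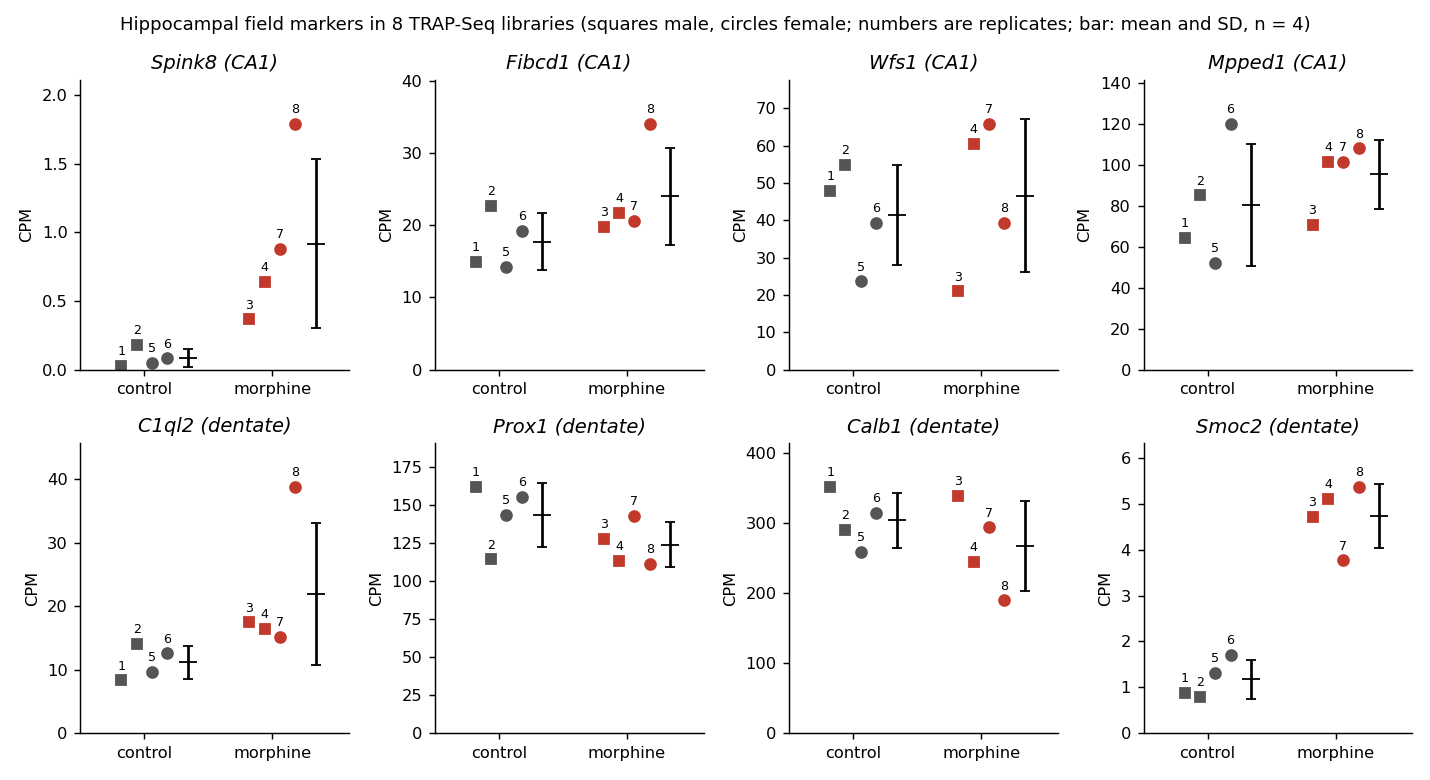
Level of each of the 8 genes in CPM (linear axis) in the 4 control and 4 morphine libraries, 1 point per library and a bar with the group mean and SD. Spink8, C1ql2 and Smoc2 have every morphine library above every control library, and the other 5 genes overlap.

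The comparison of morphine with control asked which transcripts on MOR-neuron ribosomes changed after chronic morphine. Among the 8 genes, Smoc2 passed an adjusted p of 0.05 (edgeR quasi-likelihood test, Benjamini-Hochberg adjustment over 18939 genes). Across all genes 37 passed in either direction (0.195%) and 31 with a higher level in morphine (0.164%). The log2 fold change was above 0 for 6 of the 8, against 51.4% of all genes, and its median was 0.34, against 0.0088 over all genes. The groups were separate, morphine above, for 3 of the 8, against 3.34% of all genes, and an unadjusted p under 0.05 was found for 3 of the 8, against 12.1%. These counts describe genes that were picked with this contrast in view.

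Smoc2 encodes a secreted calcium-binding protein of the extracellular matrix related to SPARC. Its level was 0.872, 0.788, 1.31 and 1.71 CPM in control replicates 1, 2, 5 and 6, and 4.72, 5.12, 3.77 and 5.36 CPM in morphine replicates 3, 4, 7 and 8. The lowest morphine library was above the highest control library. In reads this was 187 counts over the control and 714 over the morphine libraries. Smoc2 was 4.06-fold higher in morphine (log2 fold change 2.02, SE 0.26, edgeR adjusted p = 0.0176). Its place among all genes by CPM per kb moved from above 30.8% of genes in control to above 40.8% in morphine libraries. The call was lost without control replicate 1 (edgeR adjusted p = 0.0621), morphine replicate 4 (0.0905) or morphine replicate 8 (0.0602), with a log2 fold change of 1.87 to 2.23 over all 8 fits that left out a library. It was also lost when the mean log2 level of telencephalic genes (log2 fold change 1.501, edgeR adjusted p = 0.672) or of choroid plexus genes (1.39, adjusted p = 1.00), described further on, was put in the model. The choroid plexus level was -0.21 to 2.17 in control and 2.42 to 3.74 in morphine libraries, without overlap. The telencephalic level was 2.93 to 4.79 and 4.35 to 5.60. Both went largely with condition, so these fits cannot tell either level apart from condition.

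Spink8 encodes a Kazal-type inhibitor of serine proteases. Its counts were 1, 8, 2 and 3 in control replicates 1, 2, 5 and 6, and 13, 21, 27 and 87 in morphine replicates 3, 4, 7 and 8. Levels were 0.0837 ± 0.0682 CPM (SD, n = 4) in control and 0.917 ± 0.618 CPM in morphine libraries. The groups did not overlap, and morphine replicate 8 stood highest at 1.79 CPM, above the next library at 0.877 CPM. The fitted log2 fold change was 3.39 (SE 0.61), and edgeR's adjusted p of 0.0569 missed the threshold. The log2 fold change ran from 2.82 without morphine replicate 8 to 4.10 without control replicate 2, and Spink8 passed when morphine replicate 3 was left out (edgeR adjusted p = 0.0375). The ratio of summed counts, scaled to library size, was 11.6 (exact 95% interval 6.68 to 21.7), which covers counting error only. With DESeq2 the adjusted p was 0.000143. With sex in the edgeR model it was 0.0332. With the level of the choroid plexus genes in the model the log2 fold change was 1.64 (edgeR adjusted p = 1.00), and with that of the telencephalic genes 2.61 (adjusted p = 0.704).

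C1ql2 encodes a secreted C1q-like protein that organizes mossy fibre synapses. Levels were 8.28, 14.1, 9.56 and 12.5 CPM in control replicates 1, 2, 5 and 6, and 17.4, 16.4, 15.2 and 38.8 CPM in morphine replicates 3, 4, 7 and 8. Every morphine library was above every control library, and morphine replicate 8 stood far above the other 3. The log2 fold change was 0.98 (SE 0.29, edgeR adjusted p = 0.204), and it was 0.55 without morphine replicate 8 and 0.0017 with the level of the choroid plexus genes in the model. DESeq2 gave C1ql2 an adjusted p of 0.0330, so that 3 of the 8 genes passed with that tool (Smoc2, Spink8 and C1ql2), where 2.65% of all genes did.

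Fibcd1 encodes a membrane protein with a fibrinogen C domain that binds chitin and glycosaminoglycans. Its level was 14.9, 22.6, 14.2 and 19.2 CPM in control replicates 1, 2, 5 and 6, and 19.8, 21.7, 20.6 and 34.1 CPM in morphine replicates 3, 4, 7 and 8. The groups overlapped, since control replicate 2 was above 3 of the morphine libraries. The log2 fold change was 0.44 (SE 0.20, edgeR adjusted p = 0.414) and was 0.22 when morphine replicate 8 was left out. It turned to -0.15 with the level of the choroid plexus genes in the model.

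Wfs1 encodes wolframin, a membrane protein of the endoplasmic reticulum. Control libraries were at 47.9, 54.7, 23.6 and 39.3 CPM (replicates 1, 2, 5 and 6) and morphine libraries at 20.9, 60.4, 65.8 and 39.3 CPM (replicates 3, 4, 7 and 8). The lowest and the highest library were both morphine libraries. The log2 fold change of 0.17 (SE 0.33, edgeR adjusted p = 0.867) was smaller than its error, and it turned to -0.037 without control replicate 5 and to -0.058 without morphine replicate 7. With the level of the telencephalic genes in the model it was -0.27.

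Mpped1 encodes a protein with a metallophosphoesterase domain. It was at 80.3 ± 29.7 CPM (SD, n = 4; 51.9 to 120) in control and 95.3 ± 16.8 CPM (70.5 to 108) in morphine libraries. Control replicate 6 was the highest of all 8 libraries for Mpped1, so the group with the higher mean did not hold the highest library. Its log2 fold change was 0.25 (SE 0.23, edgeR adjusted p = 0.677), and it ran from 0.075 without control replicate 5 to 0.49 without control replicate 6. It turned to -0.47 with the level of the telencephalic genes in the model and to -0.41 with that of the choroid plexus genes.

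Prox1, a homeodomain transcription factor that sets and keeps granule cell fate, was at 161, 114, 143 and 155 CPM in control replicates 1, 2, 5 and 6, and at 127, 113, 143 and 111 CPM in morphine replicates 3, 4, 7 and 8. Calb1, which encodes the calcium buffer calbindin, was at 304 ± 39.0 CPM (SD, n = 4; 259 to 351) in control and 267 ± 64.4 CPM (189 to 339) in morphine libraries. For these dentate markers the groups overlapped, and the mean was lower in morphine. The log2 fold change was -0.22 for Prox1 (SE 0.13, edgeR adjusted p = 0.543) and -0.19 for Calb1 (SE 0.17, adjusted p = 0.677). Calb1 was at -0.055 without morphine replicate 8 and at -0.33 without morphine replicate 3, and it turned to 0.17 with the level of the choroid plexus genes in the model. In that fit Prox1 was at -0.031. With the level of the telencephalic genes in the model Prox1 was at -0.26 and Calb1 at -0.015. Control replicate 1 was the highest library for Prox1 and Calb1 and the lowest for Spink8 and C1ql2, and morphine replicate 8 was the lowest for Prox1 and Calb1 and the highest for Spink8, Fibcd1, C1ql2 and Smoc2.

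Calb1 and Prox1 made up 96.5% to 98.2% of the summed CPM of the 4 dentate markers in control and 87.2% to 95.8% in morphine libraries, and that sum was 413 to 522 CPM in control and 345 to 489 CPM in morphine libraries. The mean of log2 CPM over the same 4 genes, which weighs each gene alike, was 4.77 ± 0.17 (SD, n = 4) in control and 5.39 ± 0.11 in morphine libraries. The sum was on average lower in morphine while the mean log2 level was higher, and the ranges of the mean log2 level did not overlap (4.65 to 5.01 and 5.29 to 5.52). Without Smoc2 the mean of the other 3 was 6.28 ± 0.11 in control and 6.44 ± 0.13 in morphine libraries, and the ranges overlapped (6.15 to 6.41 and 6.26 to 6.55). For the CA1 markers the mean log2 level was 3.17 ± 0.43 in control and 4.07 ± 0.48 in morphine libraries, and these ranges overlapped (2.69 to 3.64 and 3.39 to 4.51). Without Spink8, whose 1 to 8 counts per control library lie close to the prior count of 2, the mean of the other 3 was 5.23 ± 0.39 and 5.51 ± 0.37. The difference between the group means was 0.90 with Spink8 and 0.28 without it. Spink8 held 0.0575% of the summed CPM of the CA1 markers in control libraries and 0.528% in morphine libraries (group means).

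The fields were compared within each library by subtracting the mean log2 CPM of the dentate markers from that of the CA1 markers. The difference was -1.73, -1.001, -2.03 and -1.62 in control replicates 1, 2, 5 and 6, and -2.05, -1.17, -1.06 and -1.01 in morphine replicates 3, 4, 7 and 8. The groups overlapped, with means of -1.60 ± 0.43 and -1.32 ± 0.49 (SD, n = 4). Ratios of some pairs of single genes were also taken. These pairs were not planned, other pairs were not examined, and the genes were chosen with this contrast known. The log2 ratio of Fibcd1 to C1ql2 was 0.57 to 0.85 in control and -0.19 to 0.44 in morphine libraries, so every morphine library lay below every control library. The log2 ratio of Smoc2 to Calb1 was -8.08 ± 0.59 in control and -5.79 ± 0.53 in morphine libraries, and that of C1ql2 to Prox1 was -3.71 ± 0.53 and -2.60 ± 0.75 (SD, n = 4). The groups were separate for Smoc2 to Calb1 and overlapped for C1ql2 to Prox1, where control replicate 2 (-3.02) was above morphine replicate 7 (-3.24).

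The difference between the sexes was fitted beside condition, and this contrast played no part in choosing the genes. None of the 8 passed (edgeR, 0 with an adjusted and 0 with an unadjusted p under 0.05; DESeq2, 0), where edgeR called 1 of 18939 genes (0.00528%), DESeq2 called 21 and 587 had an unadjusted p under 0.05. The log2 difference, female minus male, lay between -0.22 for Calb1 (SE 0.16) and 0.83 for Spink8 (SE 0.56). With a library left out, Calb1 ran from -0.35 without morphine replicate 7 to -0.092 without morphine replicate 8. Spink8 ran from 0.23 without morphine replicate 8 to 1.41 without control replicate 2. In the latter fit 2 of the 8 had an unadjusted edgeR p under 0.05, where 513 of 18777 genes did and 1 was called. Without control replicate 5, whose sex label is uncertain, 0 of the 8 were called by edgeR, 1 had an unadjusted p under 0.05 (Mpped1, log2 difference 0.44, SE 0.16, against 0.24 with all libraries), and Wfs1 moved from -0.17 to 0.066. In that fit edgeR called 5 of 18850 genes, and 495 had an unadjusted p under 0.05.

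The test of whether the morphine difference itself differed between the sexes, with 2 libraries per sex and condition, called 0 of the 8 genes and 0% of all genes with edgeR. DESeq2 called 4 genes, none of them among the 8, and 325 genes had an unadjusted edgeR p under 0.05. Smoc2 was the 1 gene of the 8 with an unadjusted p under 0.05: its log2 change was 2.57 in male and 1.59 in female libraries, a difference of -0.97 (SE 0.42, edgeR adjusted p = 1.00). Spink8 was at 2.28 in male and 4.37 in female libraries, and Wfs1 at -0.33 and 0.74, with differences of 2.13 (SE 1.13) and 1.08 (SE 0.58) that did not pass. Without control replicate 5 the female control arm held 1 library, assumed to vary like the other groups. The difference was then -1.14 for Smoc2 (SE 0.46), 1.79 for Spink8 and 0.76 for Wfs1, and 0 of the 8 were called, which says little of stability.

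Other genes of the same fields were taken from lists written with earlier results known. Of 6 further CA1 genes, 1 rose (Itpka, a kinase of inositol trisphosphate that binds actin in dendritic spines) and 0 fell, 6 had a log2 fold change above 0 (51.4% of all genes), and the median was 1.77. The edgeR count of 1 (0.195% of all genes) became 5 with sex in the model and 0 to 2 with a library left out (2 without control replicate 6 or morphine replicate 3). Over all genes the count was 110 with sex in the model and 77 without control replicate 6 or morphine replicate 3. Itpka went from 15.6 ± 4.54 to 50.8 ± 16.6 CPM (SD, n = 4; log2 fold change 1.70, SE 0.26, edgeR adjusted p = 0.0416). It was called in 2 of the 8 fits that left out a library (without control replicate 6 or morphine replicate 3), with a log2 fold change of 1.56 to 1.90. DESeq2 called 5 of the 6 (2.65% of all genes). The largest log2 differences of this list were 2.55 for Lefty1 and 2.42 for Klk8, neither of which passed with edgeR and both of which passed with DESeq2 (adjusted p = 0.00600 and 0.000251), and the smallest were 1.01 for Man1a and 1.02 for Pou3f1. Their summed CPM was 30.3 to 49.9 in control and 58.5 to 120 in morphine libraries, with no overlap, whereas the sum of the 4 CA1 markers overlapped (89.7 to 178 and 112 to 189).

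Of 10 genes of CA2 and CA3, 1 rose (Homer3, a scaffold protein of the postsynaptic density), 0 fell and 7 were above 0, with a median of 0.29, and the edgeR count became 2 with sex in the model or without morphine replicate 3. Homer3 went from 5.64 ± 0.975 to 14.1 ± 4.09 CPM (SD, n = 4; log2 fold change 1.32, SE 0.22, edgeR adjusted p = 0.0474), and it was called in 1 of the 8 fits that left out a library (without morphine replicate 3; log2 fold change 1.198 to 1.498). Dkk3 was next at 1.24, and Bok and Iyd were lowest at -0.10 and -0.087, and none of these 3 passed with edgeR or DESeq2. With edgeR's filterByExpr, or with the telencephalic or choroid plexus genes in the model, neither Itpka nor Homer3 was called, and Homer3 was not called with the sum over transcripts. Of 13 further dentate granule genes, 0 passed in either direction with edgeR and 4 with DESeq2, 8 had an unadjusted edgeR p under 0.05 (12.1% of all genes), 12 were above 0 and the median was 0.82. The edgeR count became 5 with sex in the model and 3 without control replicate 6 (110 and 77 over all genes). Il16 (log2 fold change 2.68, edgeR adjusted p = 0.0569) and Tdo2 (2.47, adjusted p = 0.0902) had the largest differences of that list, and Stxbp6 (0.11) and Glis3 (-0.022) the smallest. Over these 29 hippocampal genes, 2 passed with edgeR (0.195% of all genes) and 11 with DESeq2 (2.65%). Their log2 fold change was above 0 for 25 (51.4% of all genes), the median was 0.93, and 12 had morphine libraries wholly above the control libraries (3.34%).

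**Figure D2:**
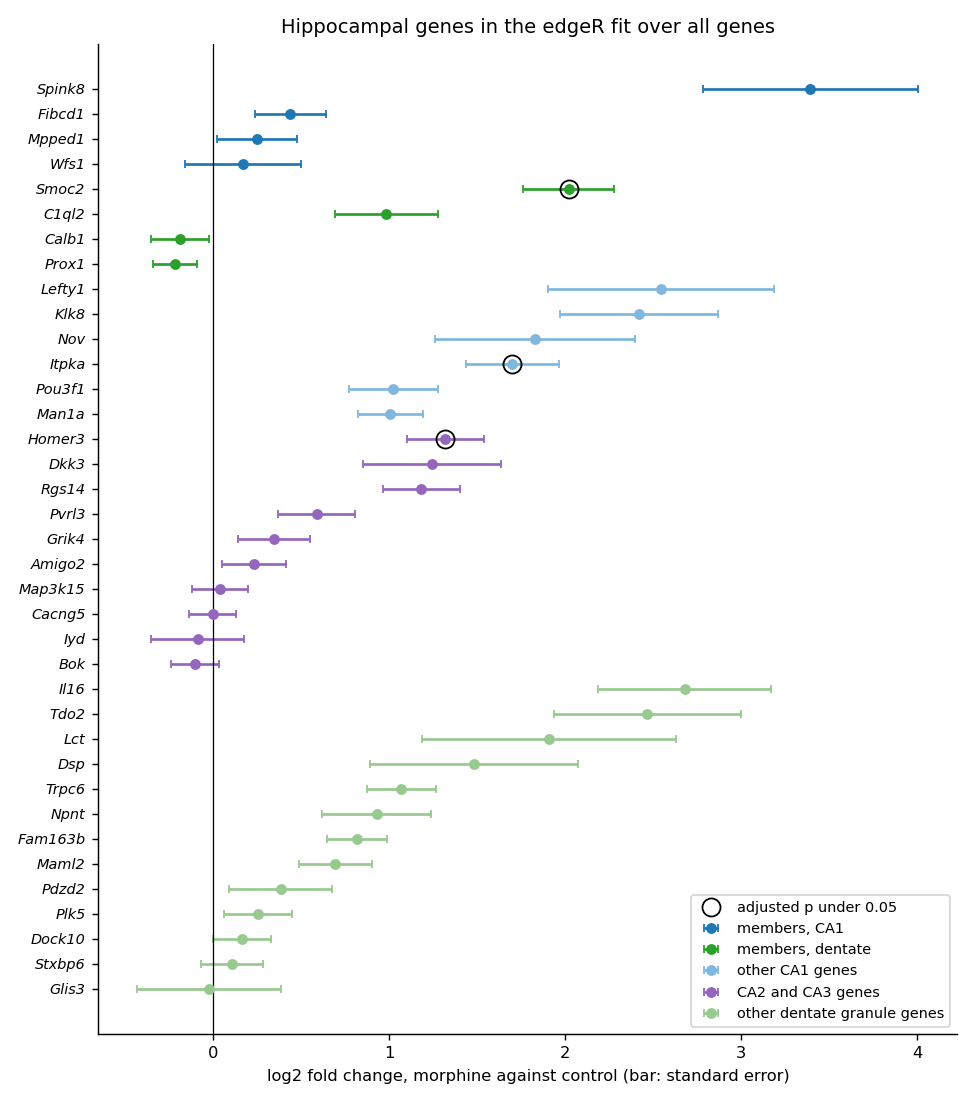
Log2 fold change of morphine against control (edgeR, bars give the SE) for the 8 markers and the 29 other hippocampal genes, grouped by field, with a ring around points with an adjusted p under 0.05. Smoc2, Itpka and Homer3 are ringed, and 31 of the 37 points lie above 0.

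Genes of other regions and cell types that a dissection above and around the PVT could hold were summed in the same way. The 9 telencephalic pyramidal neuron genes, which CA1 and the cortex share, were all above 0 (median log2 fold change 0.99), from 0.33 for Emx2 to 3.32 for Neurod6. Of the 9, 6 had an unadjusted p under 0.05 (12.1% of all genes), 0 were called with edgeR and 4 with DESeq2 (2.65%), and edgeR called 4 without control replicate 6 and 2 with sex in the model (77 and 110 over all genes). The 9 genes summed to 213 to 499 CPM in control and 404 to 934 CPM in morphine libraries. The overlap was between control replicate 6 (499 CPM) and morphine replicate 3 (404 CPM). The 9 neocortical layer genes summed to 272 to 351 CPM in control and 277 to 361 CPM in morphine libraries (median log2 fold change 0.0088, from -0.77 for Ctgf to 1.75 for Fezf2; 0 called with edgeR, and 1 higher and 1 lower with DESeq2). Of these neocortical genes, 3 had an unadjusted edgeR p under 0.05, and edgeR called 1 without control replicate 6. The 7 medial habenula genes summed to 84.6 to 122 CPM and 87.5 to 116 CPM (median 0.17, from -0.26 for Tac2 to 0.97 for Chat; 0 called with edgeR or DESeq2 and 0 with an unadjusted p under 0.05). The 7 thalamic genes had a median of -0.26, from -0.69 for Gbx2 to -0.019 for Ntng1, with 0 called with edgeR or DESeq2 and 1 with an unadjusted p under 0.05.

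Of 11 choroid plexus genes, 10 were above 0 and 8 had morphine libraries wholly above the control libraries (3.34% of all genes), with a median log2 fold change of 2.08. With edgeR 0 were called (9 had an unadjusted p under 0.05, against 12.1% of all genes), and DESeq2 called 7 (2.65% of all genes). The edgeR fits called 5 without control replicate 6 and 2 with sex in the model, where they called 77 and 110 over all genes. The 11 genes summed to 41.7 to 158 CPM in control and 214 to 672 CPM in morphine libraries, and Kcnj13 was at 0 in control replicate 1 and detected in the other 7 libraries. They ran from -0.41 for Prlr to 3.36 for Ttr, the transthyretin of choroid plexus epithelium. Morphine replicate 8, the highest library for 4 of the 8 markers, was also the highest for the choroid plexus genes. Their part in the differences of the 8 markers was not tested. In the edgeR fits with the mean log2 level of the choroid plexus or of the telencephalic genes in the model, 0 of the 8 genes were called, and 1 with the choroid plexus and 2 with the telencephalic genes had an unadjusted p under 0.05. Of all 18939 genes, 622 and 1321 had an unadjusted p under 0.05 in these fits, and 0 and 1 were called. As given with Smoc2, these fits cannot tell either level apart from condition.

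**Figure D3:**
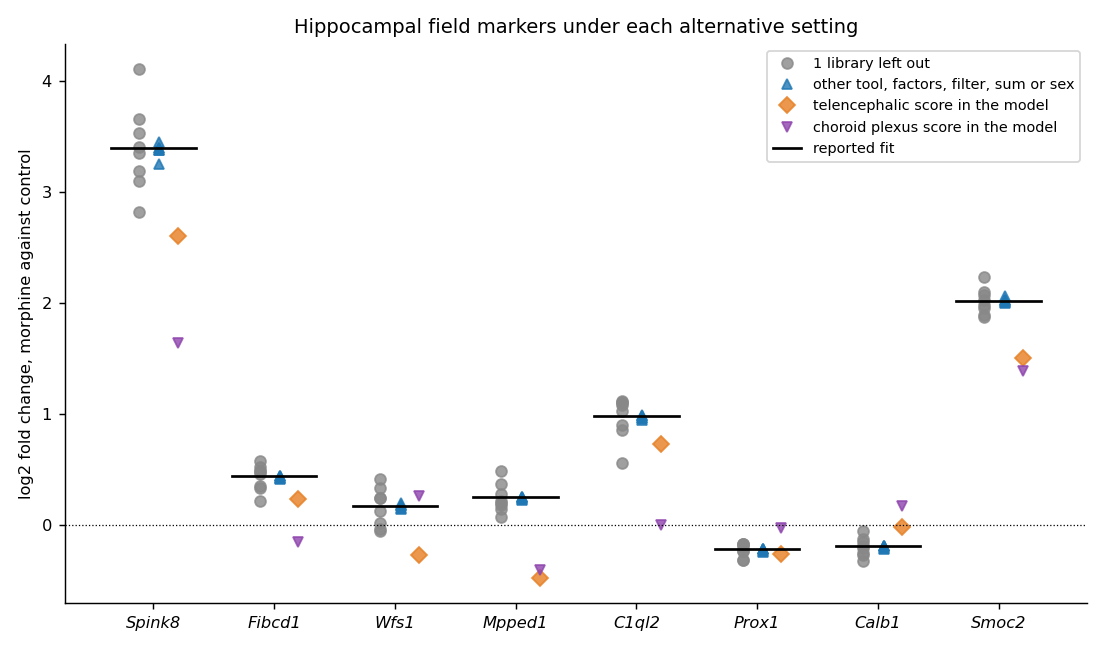
Log2 fold change of morphine against control for each of the 8 genes in the edgeR fit over all libraries and under each alternative, including each library left out in turn. Smoc2, Spink8 and C1ql2 stay above 0 under every alternative plotted, Prox1 stays below 0, and Fibcd1, Wfs1, Mpped1 and Calb1 cross 0 under at least 1.

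The other 5 lists had 0 called genes each with edgeR and with DESeq2, and an unadjusted edgeR p under 0.05 was found for 1 gene of the GABAergic list and for 0 of the others. GABAergic interneuron genes summed to 1206 to 1606 CPM in control and 945 to 1456 CPM in morphine libraries (median log2 fold change 0.21, from -0.52 for Lhx6 to 0.42 for Pvalb), astrocyte genes to 246 to 434 and 314 to 378 (0.37, from -0.058 for Aqp4 to 0.62 for Gfap), and oligodendrocyte genes to 79.5 to 960 and 449 to 1265 (0.56, from 0.41 for Mbp to 0.91 for Mog). Microglia genes were at 0.765 to 4.86 and 1.71 to 2.79 CPM (median -0.032), and endothelial genes at 1.94 to 6.15 and 1.66 to 3.27 CPM (median -0.39). The ranges of all 5 sums overlapped between the groups.

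**Figure D4:**
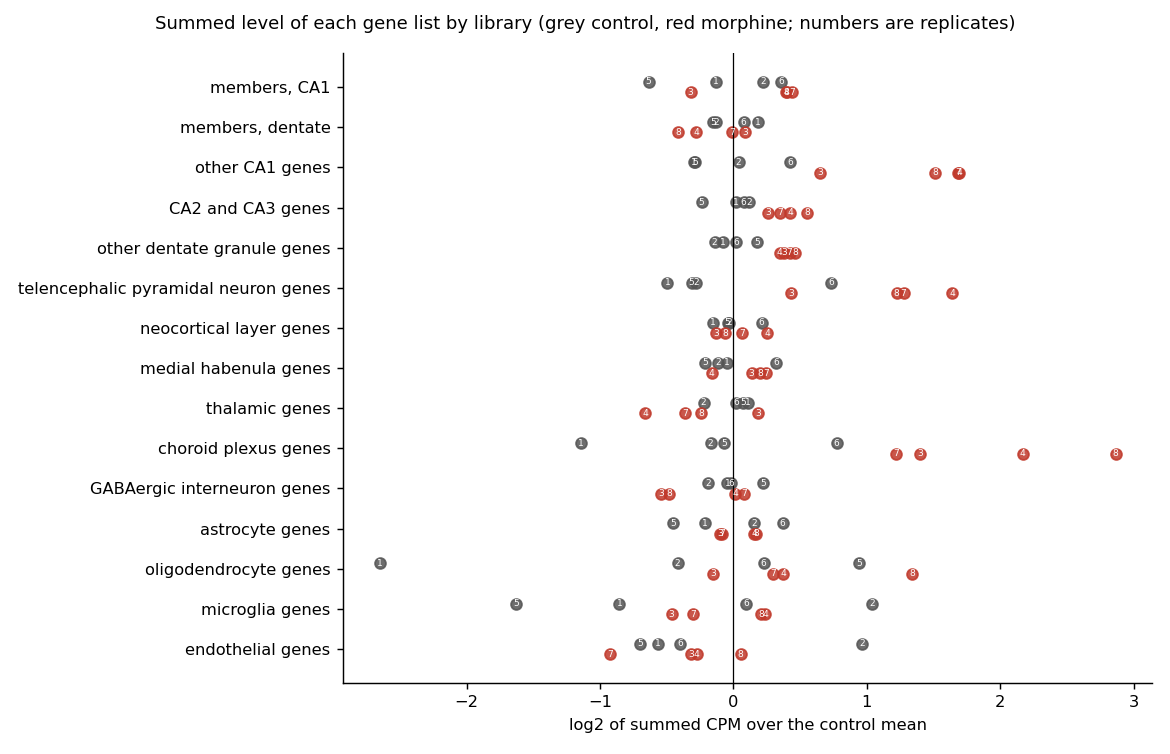
Log2 of each list's summed CPM over its control mean, 1 point per library, grey for control and red for morphine, with replicate numbers in the points. The other CA1, CA2 and CA3, other dentate and choroid plexus genes have all 4 morphine libraries to the right of all 4 control libraries, and the remaining lists, the sums of the 8 markers included, overlap.

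The genes whose centred log2 CPM over the 8 libraries lay nearest to the mean profile of the 4 CA1 markers, out of 13696 genes that reached 10 counts in each library, were Gdf10, Tnfrsf19, Gria1, Cacng8 and Slc8a2. Their root mean square distance from it was 0.154 to 0.189 log2 units, where the profile itself spanned 1.82. For the dentate markers they were Abcg2, 1700028P14Rik, Schip1, Iqcj-schip1 and Kif18a, at 0.0674 to 0.114 log2 units from a profile that spanned 0.873. Schip1 and Iqcj-schip1 share exons, so their counts overlap. With profiles divided by their SD, 2 of the 5 genes near the CA1 markers (Gdf10 and Cacng8) and 0 of the 5 near the dentate markers were found again. Likeness over 8 libraries is a description of these libraries, and each profile averages the same 4 genes as the means above, Spink8 and Smoc2 included.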

How the data were processed

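The authors deposited 1 table of raw whole counts, with RefSeq transcripts in rows and libraries in columns, from paired reads of 50 bases; the labels name mm10 and DESeq2. The study's methods describe Salmon (mapping-based, with GC bias correction) and tximport for a gene-level matrix. The table holds whole counts per transcript, and whether it came from those steps is not stated. All 8 columns were matched to samples by title, with 0 left over. Of 24488 rows, the transcript with the highest total was kept for each of 18939 genes (3532 had more than 1), which kept 68.4% to 69.0% of the table's counts per library. PCR copies are not marked, so reads are not independent molecules, and intervals cover counting error only.

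Counts were tested with edgeR 4.0.16 in R 4.3.3 (TMM factors, glmQLFit and glmQLFTest) over every gene with any count, with Benjamini-Hochberg adjustment over all genes; genes with an adjusted p under 0.05 are said to be called. Condition was fitted alone, sex with condition, and their interaction with both. The scripts were tested on simulated data. CPM used TMM-normalized library sizes, log2 CPM a prior count of 2, and lengths came from GENCODE M21 for 97.7% of genes. Replicates are separate pools of mice, and no sequencing batch is named, so none could be examined.

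The members and lists were chosen with earlier results of these data known. Named genes were the 8 members, Oprm1, called genes of the lists, the 2 genes of each list with the largest and the 2 with the smallest log2 fold change, and the 5 genes nearest to each field's profile. For lists outside the hippocampus 1 gene at each end is printed, and none for the microglia and endothelial lists. Nwd2 of the habenula list was not found in the table, and Ccn3, Nectin3 and Ccn2 were found as Nov, Pvrl3 and Ctgf. The alternatives tried were filterByExpr, DESeq2 1.42.0, upper-quartile or RLE factors, sex or a marker score in the model, the sum over transcripts and each library left out. The interaction without control replicate 5 and the field means with a gene left out were added after seeing the data. The ratios of single genes were not part of the plan. Figures were drawn with matplotlib 3.10.9.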

Additional observations from a re-analysis of the deposited data

Results flagged for a closer look

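Among 48 groups of 4 libraries (the 8 genes, the sums of the CA1 and dentate markers, the other list sums and Oprm1, in control and in morphine), 5 had a highest or lowest library whose gap to the next, over the group's range, was above Dixon's critical value; chance gives such a gap in about 1 in 20 groups. Fibcd1 was at 34.1 CPM in morphine replicate 8, where the other morphine libraries were at 19.8 to 21.7 CPM. C1ql2 was at 38.8 CPM in the same library, where the others were at 15.2 to 17.4 CPM. The 4 CA1 markers summed to 112 CPM in morphine replicate 3, where the other morphine libraries were at 183 to 189 CPM. The telencephalic pyramidal neuron genes summed to 499 CPM in control replicate 6, where the other control libraries were at 213 to 247 CPM. The endothelial genes summed to 6.15 CPM in control replicate 2, where the others were at 1.94 to 2.39 CPM.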

How the results depend on the processing

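The number of the 8 genes called between morphine and control, 1, was 3 with DESeq2, 2 with sex in the model, 0 with the telencephalic or the choroid plexus score in the model, and 0 to 2 when a library was left out (0 without control replicate 1, morphine replicate 4 or morphine replicate 8, and 2 without morphine replicate 3). Over all genes the 37 calls became 502 with DESeq2, 110 with sex in the model, 22 with the sum over transcripts, 14 with filterByExpr, 1 with the telencephalic score, 0 with the choroid plexus score, and 0 to 77 with a library left out (0 without morphine replicate 4 or 8, where 1696 and 1664 genes had an unadjusted p under 0.05, 1 without control replicate 1, 11 without morphine replicate 7, 20 without control replicate 5, and 77 without control replicate 6 or morphine replicate 3). With the choroid plexus score 622 genes had an unadjusted p under 0.05. The cause of these shifts was not tested. Of 128 values of the 8 genes under alternatives of this contrast, 112 kept direction and side of the threshold, 5 lost and 4 gained a call, and 7 changed sign: Fibcd1 at -0.15, Mpped1 at -0.41 and Calb1 at 0.17 with the choroid plexus score, Wfs1 at -0.27 and Mpped1 at -0.47 with the telencephalic score, and Wfs1 at -0.037 without control replicate 5 and -0.058 without morphine replicate 7 (range with a library left out -0.058 to 0.41). Between the sexes, with a library left out, Wfs1 ran from -0.51 to 0.066 (above 0 without control replicate 5, and at 0.020 without morphine replicate 4), Fibcd1 from -0.11 to 0.31 and C1ql2 from -0.073 to 0.57 (below 0 without morphine replicate 8), and Mpped1 from -0.030 (without control replicate 6) to 0.44. The interaction of Mpped1 turned from 0.084 to -0.40 without control replicate 5. The number of the 8 called was 0 under every alternative for sex and for the interaction. The difference of CA1 and dentate markers stayed within 1 SD with a prior count of 0.5 (-1.74 in control, -1.34 in morphine) or summed CPM (-1.76 and -1.34). Depth limits Spink8, with 1 to 8 counts per control library. No paired analysis was possible because control and morphine libraries share no replicate numbers in the labels.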
